A study of Homo sapiens with 8 samples.

Results

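The clustered histone genes are the genes written HIST1H to HIST4H in the deposited tables, named for the cluster and for the histone class they encode. Both tables carry 89 such names. Of these, 15 are named as pseudogenes and were left out, and 33 of the other 74 had been tested by the authors in at least 1 comparison. Those 33 of the 60595 listed genes are described, and the 41 tested in neither comparison are given by their levels. Testing required reads, so the 33 are the better measured genes and do not stand for every clustered histone gene.

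A human cell packs its DNA around octamers of the core histones H2A, H2B, H3 and H4, and H1 sits on the linker between them. Most of these proteins come from clusters of small genes without introns that are transcribed in S phase, when the coactivator NPAT at histone locus bodies is phosphorylated by cyclin E and CDK2. Their mRNA is the known exception to polyadenylation in animal cells: it ends in a stem-loop, bound by SLBP and cut with the U7 snRNP, and is degraded when DNA synthesis stops. Some clustered genes also make a polyadenylated transcript, which is known from differentiated and arrested cells.

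RNA was sequenced from SUM159, an established human breast cancer line, infected with lentivirus that carried a control hairpin (shCon) or a hairpin against the transcription factor FOXO1 (shFoxO1), and kept for 3 days in DMSO or in 10 uM of the PARP inhibitor olaparib. Each of the 4 groups has 2 libraries in the labels, which do not say whether these were separate cultures. Values of 3 groups were available as 2 tables of comparisons, olaparib against DMSO in shCon cells and shFoxO1 against shCon under olaparib. The shFoxO1 DMSO group was not used here, so what the hairpin did without the drug cannot be told apart from what it did with it. All groups share the line, viral infection and a medium with serum, insulin and hydrocortisone, and the number of hairpins against FOXO1 is not given in the sources used here.

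The tables hold 1 FPKM (fragments scaled by transcript length and sequencing depth) per gene and group, so no SD can be given, the depth is unknown, and a gene is called higher or lower where the authors' q-value was at most 0.05. In bulk RNA, fewer cells in S phase and less histone mRNA per cell cannot be told apart. FOXO1 had 89.2 FPKM in shCon and 17.5 FPKM in shFoxO1 cells under olaparib, 5.11-fold lower (q = 0.000244, the authors' deposited table). All 5 mesenchymal markers listed for this line were detected, among them VIM at 1656 to 2487 FPKM, while of the 5 epithelial markers CDH1 was at 0 and KRT8 and KRT18 were at 93.7 to 331 FPKM. Some of these moved between the groups: TWIST1 and KRT18 were called lower with olaparib, and in shFoxO1 cells VIM and KRT8 were called lower and FN1 higher. Of the 7 leukocyte markers, CD3D, LYZ, MS4A1 and NKG7 were at 0 in every group and none of the others passed 1.34 FPKM. Of the 3 endothelial markers, PECAM1 alone passed 0.1 FPKM, at 1.80 FPKM in shFoxO1 cells, where it was called higher. The part of these differences in the histone values was not tested.

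Promoters of 6 clustered histone genes are printed because the calls below turn on these genes and because the DNA motifs differ by class. Each is the 250 bases before the RefSeq start of transcription (GRCh38.p14, the build hg38), 5′ to 3′ on the gene's own strand. Capitals mark 4 motifs on either strand: the octamer ATTTGCAT, known to bind OCT1, the CCAAT box CCAAT, the TATA box TATAAA, and AAACACA, known as the H1 box. HIST1H1C is the most abundant clustered H1 gene here. The windows of HIST1H2AC, HIST1H2BJ and HIST2H2BE reach the start of their divergent neighbours HIST1H2BC, HIST1H2AG and HIST2H2AC. That of HIST1H2BK reaches the first RefSeq base of HIST1H2AH. HIST2H2BE, HIST1H2BD and HIST1H2BK are H2B genes with different calls, and the first of the RefSeq windows is shown for the last pair, which have 2 each.
HIST1H1C (H1-2), chr6:26056471-26056720, minus strand: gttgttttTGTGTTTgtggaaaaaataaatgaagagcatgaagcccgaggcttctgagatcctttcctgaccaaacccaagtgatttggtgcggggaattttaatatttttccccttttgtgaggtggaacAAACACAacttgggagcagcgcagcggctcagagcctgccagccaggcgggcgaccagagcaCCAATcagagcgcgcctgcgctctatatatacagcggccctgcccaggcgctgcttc
HIST1H2AC (H2AC6), chr6:26123922-26124171, plus strand: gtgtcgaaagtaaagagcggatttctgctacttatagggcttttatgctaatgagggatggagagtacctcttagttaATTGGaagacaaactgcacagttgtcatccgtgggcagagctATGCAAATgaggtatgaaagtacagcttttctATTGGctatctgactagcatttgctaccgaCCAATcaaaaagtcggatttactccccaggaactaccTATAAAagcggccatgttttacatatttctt
HIST1H2BJ (H2BC11), chr6:27132796-27133045, minus strand: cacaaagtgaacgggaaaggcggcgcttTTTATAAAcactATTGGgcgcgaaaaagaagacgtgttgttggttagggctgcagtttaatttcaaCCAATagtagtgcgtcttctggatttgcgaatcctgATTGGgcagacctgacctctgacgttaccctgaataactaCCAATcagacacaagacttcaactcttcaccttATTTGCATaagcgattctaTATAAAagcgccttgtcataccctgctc
HIST2H2BE (H2BC21), chr1:149886683-149886932, minus strand: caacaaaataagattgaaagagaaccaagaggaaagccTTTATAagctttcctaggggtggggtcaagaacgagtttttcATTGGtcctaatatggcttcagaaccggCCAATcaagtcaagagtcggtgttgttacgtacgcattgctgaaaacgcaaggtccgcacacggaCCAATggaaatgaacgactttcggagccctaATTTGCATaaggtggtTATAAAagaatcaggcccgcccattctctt
HIST1H2BD (H2BC5), chr6:26157871-26158120, plus strand: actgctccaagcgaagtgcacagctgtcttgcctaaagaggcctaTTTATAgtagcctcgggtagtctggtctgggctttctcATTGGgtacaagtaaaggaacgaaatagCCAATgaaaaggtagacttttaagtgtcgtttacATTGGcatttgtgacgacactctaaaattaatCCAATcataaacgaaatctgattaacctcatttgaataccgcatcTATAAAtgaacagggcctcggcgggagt
HIST1H2BK (H2BC12), chr6:27146859-27147108, minus strand: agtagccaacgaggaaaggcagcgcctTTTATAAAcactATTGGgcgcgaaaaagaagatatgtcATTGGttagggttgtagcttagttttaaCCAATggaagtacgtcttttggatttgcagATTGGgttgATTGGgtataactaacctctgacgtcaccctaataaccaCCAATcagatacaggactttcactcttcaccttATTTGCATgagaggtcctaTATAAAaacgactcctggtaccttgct

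The octamer was in 1.63% of the 35116 RefSeq windows of this length. Clustered histone genes were counted once each, with a match in any of their windows. By gene, the octamer was found for 11 of 16 H2A, 14 of 18 H2B, 1 of 12 H3, 0 of 6 H1 and 0 of 13 H4 genes. It was thus found mainly on H2A and H2B genes, the classes that share divergent promoters, where the same match can count for both neighbours. The H1 box was found for 6 of 6 H1 genes and in none of the windows of the other classes, against 4.82% of all windows. CCAAT, in 32.0% of all windows, was found for every H1, H2A, H2B and H3 gene with a window and for 3 of 13 H4 genes. TATAAA was in 10.7% of all windows and in 21 of the 29 members that have a window. In HIST1H2BJ, HIST1H2BK and HIST2H2BE the octamer began 46 or 47 bases before the start, and a TATA box 27 to 30 bases before it. HIST1H2BD had a TATA box at 28 bases and no octamer of these letters in this window. The FOXO core GTAAACA, in 2.98% of all windows and able to overlap the H1 box by 5 letters, was found for 0 of the 29 members with a window. A match describes letters, and no binding was measured.

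Levels were very unequal. Among the 74 genes, 12 were listed at 0 in every group and 47 stayed under 1 FPKM in every group. HIST3H2A, HIST1H2BK and HIST1H1C held 63.6% of the summed FPKM in DMSO and 63.6% in olaparib. In shFoxO1 cells, HIST1H2BK, HIST3H2A and HIST1H2BD held 64.5%. The number of genes at 10 FPKM or more was 3 in DMSO, 7 in shCon cells in olaparib and 5 in shFoxO1 cells in olaparib. Among the low ones were genes known for high S phase output in dividing cells: HIST1H4C had 0.903, 0.472 and 0.391 FPKM in these groups, HIST1H3B had 0.395, 0.784 and 0.365 FPKM, and HIST1H1B was listed at 0 in all. The protocol names ribosomal RNA depletion and also poly(A) fractions without saying which fraction entered each library, and the part of this in the levels was not tested. The 4 clustered genes known from testis, HIST1H1T, HIST1H2AA, HIST1H2BA and HIST3H3, were at 0 except HIST3H3 at 0.137 FPKM in DMSO.

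**Figure D1:**
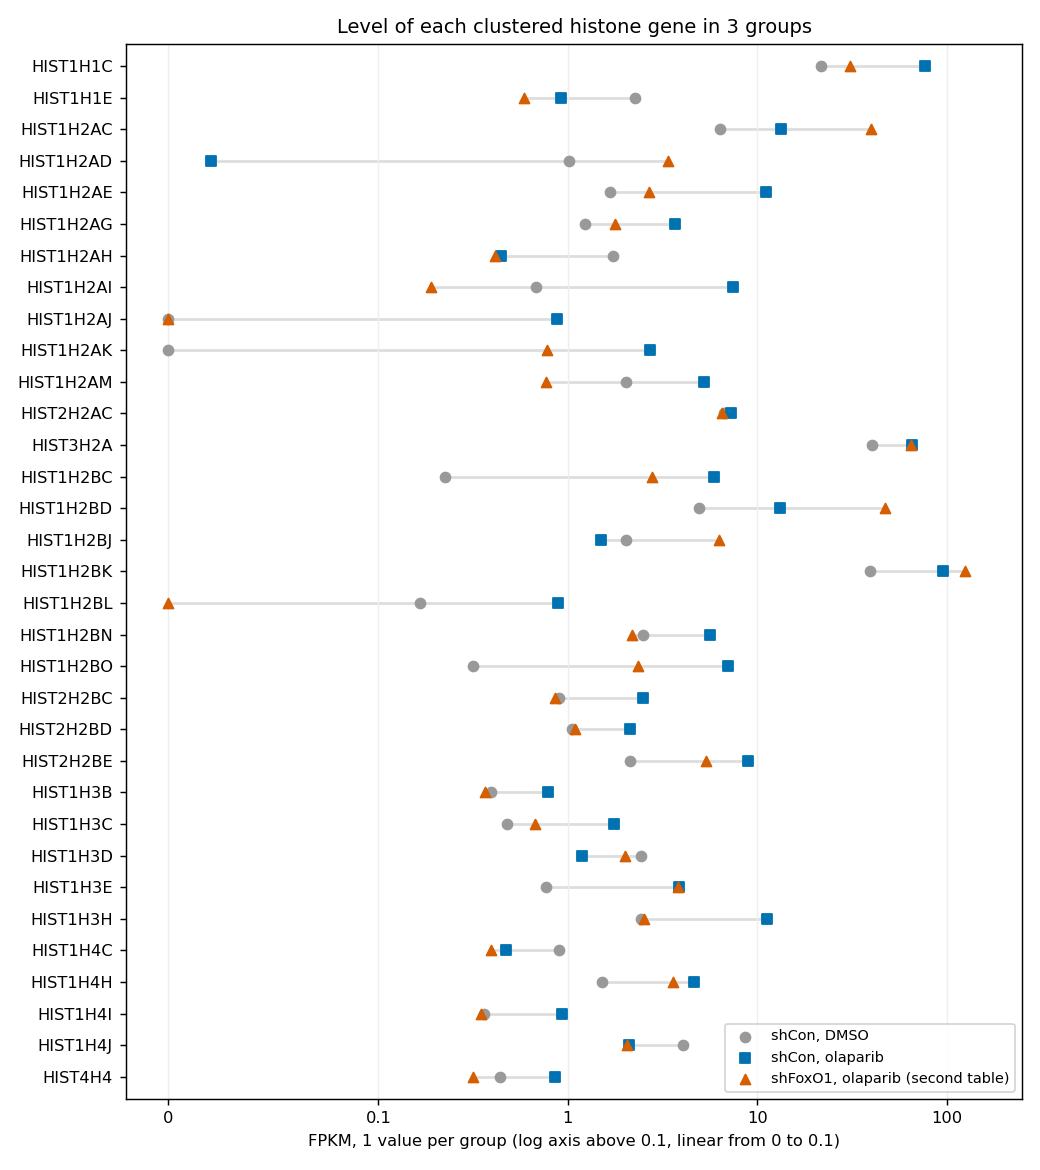
FPKM of each of the 33 tested clustered histone genes in shCon cells in DMSO (circles), shCon cells in olaparib (squares, first table) and shFoxO1 cells in olaparib (triangles, second table), 1 value per group on an axis that is linear from 0 to 0.1 and logarithmic above. HIST1H2BK, HIST3H2A and HIST1H1C lie highest in DMSO, from 21.5 to 40.4 FPKM, and most other genes lie under 10 FPKM.

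After 3 days of olaparib, 13 of the 33 clustered histone genes were called higher in shCon cells (39.4%) and 1 was called lower (3.03%). Over all 14841 genes tested in this comparison, 15.6% were called higher and 23.1% lower. The share called higher was thus above the background and the share called lower below it, a description without a test of its own. The median log2 ratio was 1.36 over the 31 members with a ratio, 24 of them above 0, beside a median of -0.07 over all tested genes. HIST1H2AJ and HIST1H2AK were tested while at 0 in DMSO, so reads from 1 group could suffice for a test. Genes of low level can thus be members through their olaparib reads, or, as may hold for HIST1H2AH, through their DMSO reads. The direction of such ratios is tied to the filter. The calls fell in H1 (1 higher and 1 lower of 2), H2A (5 higher of 11), H2B (5 higher of 10) and H3 (2 higher of 5). Of the 5 H4 genes none was called, and none had an unadjusted p under 0.05 in the authors' deposited table.

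Between shFoxO1 and shCon cells under olaparib, 8 of 27 tested clustered histone genes were called lower in shFoxO1 cells (29.6%) and 3 were called higher (11.1%). Over all 14660 genes tested, 19.8% were called lower and 22.6% higher. The median log2 ratio was -0.98, with 21 ratios below 0 and 6 above, beside 0.01 over all tested genes. Lower calls were 1 of 2 H1, 2 of 9 H2A, 4 of 9 H2B and 1 of 4 H3 genes, and higher calls were 1 H2A and 2 H2B genes. None of the 3 H4 genes was called, and none had an unadjusted p under 0.05 in the authors' deposited table. The comparisons share the shCon olaparib group, whose values in the second table were 1.016 to 1.018 times those in the first over the 24 members of at least 1 FPKM in both, so each ratio was taken within a table and the 2 sets of calls are not independent.

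**Figure D2:**
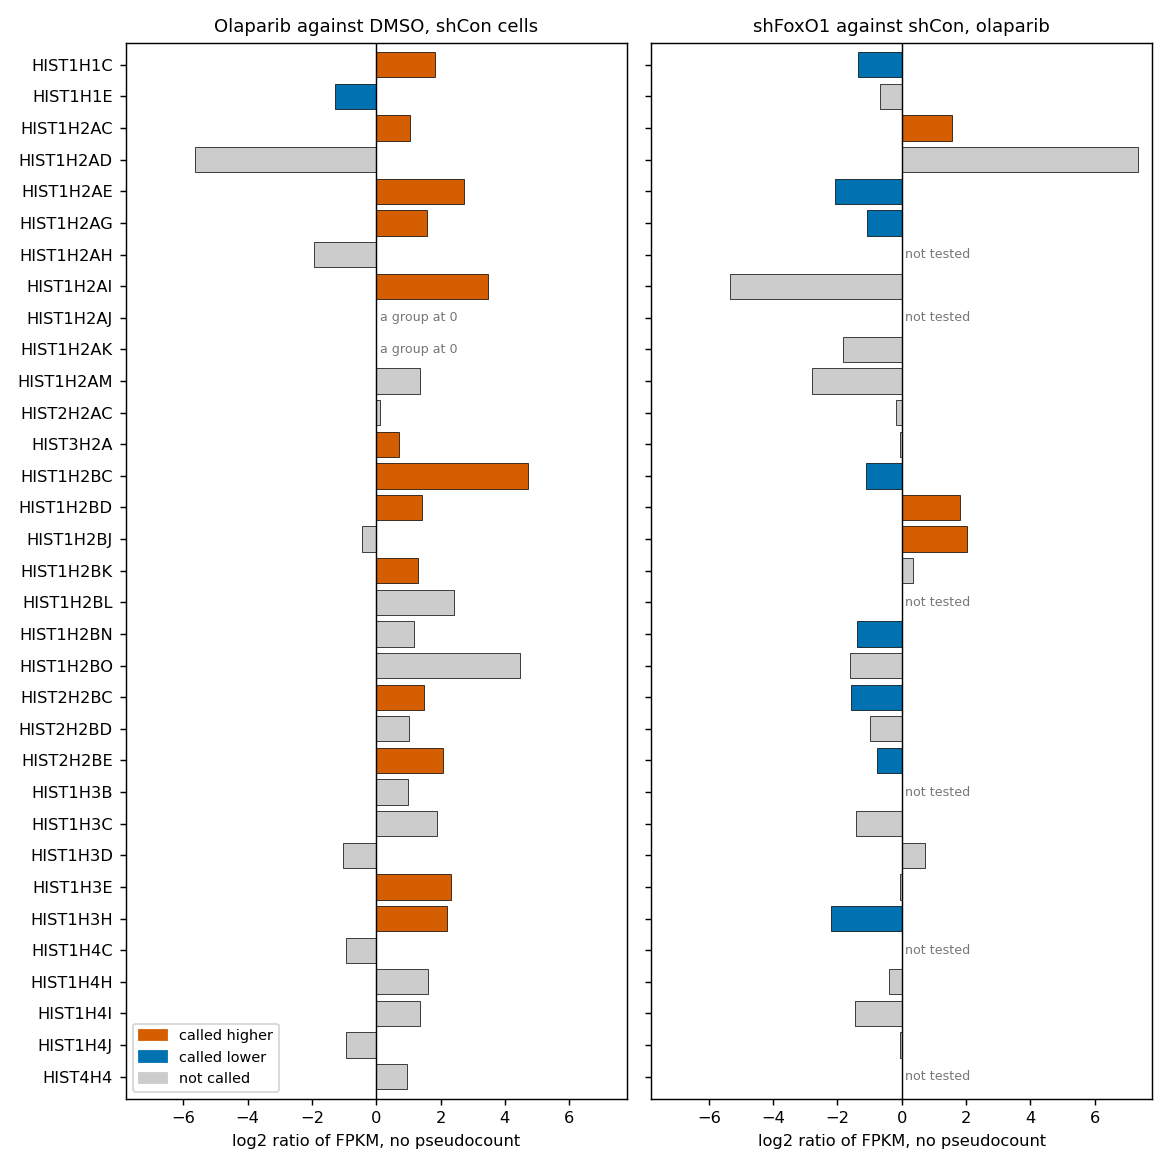
Log2 ratio of FPKM for each of the 33 genes, olaparib against DMSO in shCon cells (left) and shFoxO1 against shCon under olaparib (right), coloured by the call from the authors' q-values. Of the bars, 13 are called higher and 1 lower on the left, and 3 higher and 8 lower on the right.

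Of the linker histone genes, HIST1H1C (chromosome 6, 26055740 to 26056470, RefSeq coordinates here and below) encodes H1.2, a widely expressed linker histone. It had 21.5 FPKM in DMSO, 76.7 FPKM in shCon cells in olaparib and 30.6 FPKM in shFoxO1 cells in olaparib. It was 3.56-fold higher with olaparib (q = 0.000284) and 2.55-fold lower in shFoxO1 than in shCon cells under the drug (q = 0.000244), both from the authors' deposited table. HIST1H1E, which encodes H1.4, was the only clustered histone gene called lower with olaparib. It had 2.27 FPKM in DMSO, 0.924 FPKM in olaparib and 0.589 FPKM in shFoxO1 cells, 2.45-fold lower with the drug (q = 0.0335, the authors' deposited table). This call was lost with adjustment over every listed gene (adjusted p = 0.137, Benjamini-Hochberg). That adjustment also counts the untested genes, so here and below it acts only as a stricter q threshold. Its shFoxO1 comparison was not called (q = 0.474, the authors' deposited table). HIST1H1C made up 89.9% of the summed FPKM of the 6 H1 genes in DMSO and 98.5% in olaparib.

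HIST3H2A (chromosome 1, 228457364 to 228457873), in a cluster apart from the others, was the most abundant H2A gene. It had 40.4, 65.7 and 64.7 FPKM in DMSO, olaparib and shFoxO1 with olaparib, and was 1.63-fold higher with the drug (q = 0.000284, the authors' deposited table). Under the drug the 2 cell populations differed by a log2 ratio of -0.04 (q = 0.857, the authors' deposited table). HIST1H2AC (chromosome 6, 26124172 to 26124690) was the single H2A gene called higher in both comparisons. It went from 6.37 to 13.3 FPKM with olaparib, 2.08-fold (q = 0.000284), and stood at 39.9 FPKM in shFoxO1 cells, 2.96-fold above shCon cells (q = 0.000244), per the authors' deposited table. Its highest value was therefore in the knockdown cells.

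HIST1H2AE, HIST1H2AG and HIST1H2AI encode H2A proteins of nearly the same sequence. HIST1H2AE had 1.67, 11.2 and 2.69 FPKM in the 3 groups, 6.69-fold higher with olaparib (q = 0.00101) and 4.22-fold lower in shFoxO1 cells (q = 0.00143), per the authors' deposited table. HIST1H2AG had 1.24, 3.69 and 1.78 FPKM, 2.98-fold higher with the drug (q = 0.000284) and 2.11-fold lower in shFoxO1 cells (q = 0.000462), per the authors' deposited table. Both were lowest in DMSO and highest in shCon cells in olaparib. HIST1H2AI had 0.679, 7.47 and 0.189 FPKM. It was called 11.0-fold higher with olaparib (q = 0.0476), while the 40.1-fold lower level in shFoxO1 cells was not called (q = 0.367), per the authors' deposited table. The olaparib log2 ratio of HIST1H2AI, 3.46, was 2.34 with a pseudocount of 1 FPKM, and its call was lost with adjustment over every listed gene. A fold of that size therefore did not always pass the authors' test at these levels.

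Among the uncalled H2A genes, HIST2H2AC had the most even values, with 6.66, 7.23 and 6.52 FPKM. HIST1H2AM, listed at one locus with the H3 gene HIST1H3J, had 2.03, 5.21 and 0.764 FPKM, with q = 0.203 for olaparib and q = 0.0870 for shFoxO1 in the authors' deposited table. The widest log2 ratio of all members was that of HIST1H2AD, named for its value: 1.02 FPKM in DMSO, 0.0205 FPKM in olaparib and 3.38 FPKM in shFoxO1 cells, called in neither comparison (q = 0.421 and q = 0.371, the authors' deposited table). HIST1H2AD is listed at one locus with the H3 gene HIST1H3D, so reads of both could have been divided between them. HIST1H2AH, HIST1H2AJ and HIST1H2AK ranged from 0 to 2.74 FPKM and were not called.

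HIST1H2BK (chromosome 6, 27138293 to 27146858) encodes an H2B and was the most abundant clustered histone gene under olaparib. It had 39.2, 95.3 and 124 FPKM in DMSO, olaparib and shFoxO1 with olaparib, 2.43-fold higher with the drug (q = 0.000284, the authors' deposited table). The shFoxO1 comparison of this gene, 1.28-fold higher, was not called (q = 0.127, the authors' deposited table). HIST1H2BD (chromosome 6, 26158121 to 26171349) had 4.91, 13.1 and 47.2 FPKM. It was 2.67-fold higher with olaparib (q = 0.000284) and 3.53-fold higher in shFoxO1 than in shCon cells (q = 0.000244), per the authors' deposited table. The table's locus for HIST1H2BD spans 26510 bases and holds HIST1H2BE as well, which stayed at or below 0.290 FPKM.

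HIST1H2BJ had its high value in the knockdown group alone, with 2.03, 1.50 and 6.27 FPKM. It was 4.10-fold higher in shFoxO1 cells (q = 0.00681), and its olaparib comparison was not called (q = 0.670), per the authors' deposited table. HIST2H2BE (chromosome 1, 149884459 to 149886682) had 2.12, 8.93 and 5.33 FPKM. It was 4.22-fold higher with olaparib (q = 0.000284) and 1.70-fold lower in shFoxO1 cells (q = 0.000863), per the authors' deposited table. Its shFoxO1 level was thus still between the other groups. HIST1H2BC (chromosome 6, 26113170 to 26123926) had 0.225, 5.93 and 2.78 FPKM, called 26.4-fold higher with the drug (q = 0.0296) and 2.17-fold lower in shFoxO1 cells (q = 0.0295), per the authors' deposited table. The olaparib log2 ratio of HIST1H2BC, 4.72, rests on the low DMSO value and was 2.50 with a pseudocount of 1 FPKM. Both of its calls were lost when the authors' p-values were adjusted over every listed gene (adjusted p = 0.121 and 0.122, Benjamini-Hochberg).

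HIST1H2BN had 2.50, 5.60 and 2.19 FPKM and was called in the shFoxO1 comparison only, 2.60-fold lower (q = 0.0190, the authors' deposited table; 0.0783 adjusted over every listed gene), with q = 0.0547 for olaparib in the authors' deposited table. The listed locus of HIST1H2BN spans 28039 bases and also holds HIST1H2AK, HIST1H2AL and a gene named as a pseudogene, so reads could have been divided among them. HIST2H2BC and HIST2H2BD, which RefSeq lists as the pseudogenes H2BC20P and H2BC19P, share a locus in the tables. HIST2H2BC had 0.899, 2.49 and 0.855 FPKM, 2.77-fold higher with olaparib (q = 0.000284) and 2.97-fold lower in shFoxO1 cells (q = 0.000863), per the authors' deposited table. HIST2H2BD had 1.06, 2.13 and 1.10 FPKM and was not called (q = 0.0503 and q = 0.143, the authors' deposited table). HIST1H2BO, at 0.317, 6.98 and 2.33 FPKM, was not called either (q = 0.384 and q = 0.113, the authors' deposited table). HIST1H2BL reached 0.896 FPKM in shCon cells in olaparib at the most and was not called.

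HIST1H3H, which encodes the replication-dependent H3.1, had 2.44, 11.2 and 2.51 FPKM, so its value in shFoxO1 cells in olaparib lay beside that in shCon cells in DMSO. It was 4.60-fold higher with olaparib (q = 0.000284) and 4.55-fold lower in shFoxO1 cells (q = 0.000244), per the authors' deposited table. HIST1H3E had 0.766, 3.86 and 3.81 FPKM, 5.04-fold higher with olaparib (q = 0.000284) and not called between the cell populations (q = 0.938), per the authors' deposited table. Whether HIST1H3H and HIST1H3E differ in their response was not tested. Of the uncalled H3 genes, HIST1H3C had 0.478, 1.76 and 0.674 FPKM and HIST1H3D had 2.44, 1.18 and 2.01 FPKM. Among the H4 genes, HIST1H4H had 1.51, 4.60 and 3.57 FPKM (q = 0.117 and q = 0.567, the authors' deposited table). HIST1H4J had 4.07, 2.10 and 2.05 FPKM (q = 0.328 and q = 0.921, the authors' deposited table). HIST1H3B, HIST1H4C, HIST1H4I and HIST4H4 stayed at or under 0.951 FPKM.

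Many copies of the core histone genes are nearly identical in sequence, and how the authors' software divided reads among them is not given in the sources used here. Sums over a class do not depend on that division where copies have the same length. Listed loci differed in length, such as 381 bases for HIST1H2BK and 26510 bases for HIST1H2BD in H2B, so the sums below can depend on that division. The 74 genes together had 159 FPKM in DMSO, 374 FPKM in shCon cells in olaparib and 366 FPKM in shFoxO1 cells in olaparib, log2 ratios of 1.23 for the drug and -0.05 for shFoxO1. H1 had 24.0, 77.8 and 31.2 FPKM, H2A had 62.6, 118 and 122 FPKM, and H2B had 55.8, 146 and 195 FPKM. H3 had 8.06, 20.7 and 9.81 FPKM, and H4 had 8.60, 10.6 and 8.35 FPKM. Every class sum was higher in olaparib than in DMSO in shCon cells. Between shFoxO1 and shCon cells under the drug the H1 and H3 sums had log2 ratios of -1.34 and -1.10, the H2B sum 0.39, the H2A sum 0.02 and the H4 sum -0.37. Sums carry no test, and 1 gene can set one: HIST1H2BK held 65.1% of the H2B sum in shCon cells in olaparib.

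**Figure D3:**
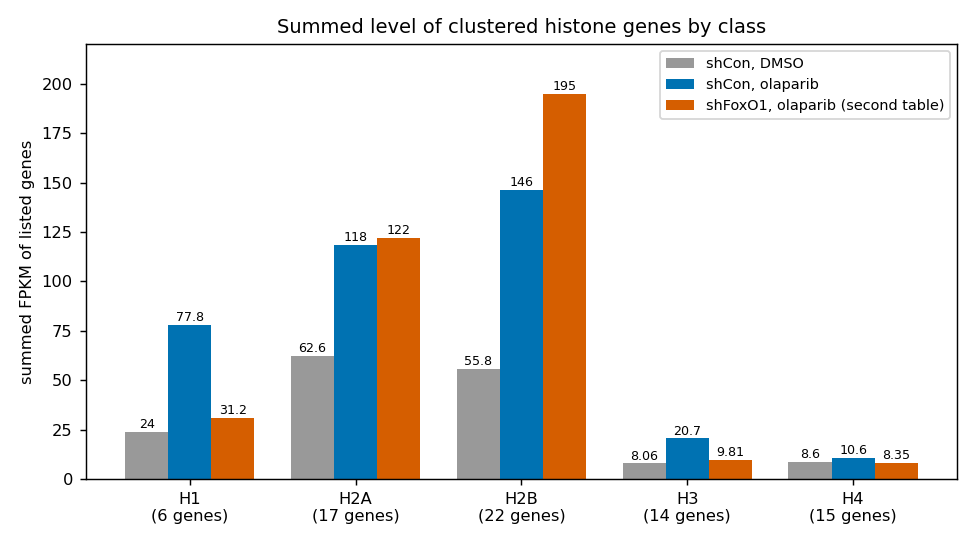
Summed FPKM of all 74 listed clustered histone genes by class in the 3 groups, 1 value per group without error. The H2B bars stand at 55.8, 146 and 195 FPKM and the H1 bars at 24.0, 77.8 and 31.2 FPKM.

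The genes listed here as known to make a polyadenylated transcript were HIST1H1C, HIST1H2AC, HIST1H2BC, HIST1H2BD, HIST1H2BJ, HIST1H2BK, HIST2H2BE and HIST4H4. The list may be incomplete, so genes outside it can make such transcripts too. With olaparib, 6 of these 8 were called higher and 0 lower (median log2 ratio 1.35), beside 7 higher and 1 lower of the 25 other members (median 1.36), against 15.6% higher and 23.1% lower over all tested genes. In shFoxO1 cells, 3 of 7 tested were called higher and 3 lower (median 0.36), beside 0 higher and 5 lower of 20 others (median -1.23). Lower calls outside the list were thus 25.0%, near the 19.8% of all tested genes, while 22.6% of all tested genes were called higher. None of those 20 was higher at an unadjusted p under 0.05 in the authors' deposited table either. All 3 genes called higher in shFoxO1 cells, HIST1H2AC, HIST1H2BD and HIST1H2BJ, were thus on this list. The 8 genes summed to 76.8 FPKM in DMSO, 216 FPKM in olaparib and 257 FPKM in shFoxO1 cells, which was 48.3%, 57.7% and 70.1% of the clustered histone FPKM. The other 66 genes summed to 82.2, 158 and 109 FPKM. The log2 ratio of sums between shFoxO1 and shCon cells was 0.23 on the list and -0.56 outside it, so the total in shFoxO1 cells was near that of shCon cells while its make-up was not. The list rests on background knowledge but was chosen with earlier results of these data known, so the split on and off it is a description without a test. The tables do not separate transcripts by tail, and a share of polyadenylated RNA was not measured.

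H2A and H2B genes often lie head to head and share the DNA between them. Among the clustered genes with a RefSeq window, 11 such pairs had starts 194 to 248 bases apart on opposite strands. HIST1H2AH has no window, so it was not paired with HIST1H2BK, although RefSeq places its first base at 27147106 and the last base of HIST1H2BK at 27146858. With olaparib these 2 genes had log2 ratios of -1.95 (HIST1H2AH, not called) and 1.28 (HIST1H2BK, called higher). The counts below leave them out. Both genes were tested in 6 pairs in the olaparib comparison, and both were called in 1 pair, HIST1H2AC and HIST1H2BC, each higher. In the shFoxO1 comparison both were tested in 5 pairs and called in 2, each time in opposite directions. HIST1H2AC was higher and HIST1H2BC lower in shFoxO1 cells, at log2 ratios of 1.56 and -1.12, with starts 246 bases apart. HIST1H2BJ was higher and HIST1H2AG lower, at 2.04 and -1.08, with starts 248 bases apart. Under the stricter threshold set by adjustment over every listed gene, HIST1H2BC was called in neither comparison. This leaves no pair called together with olaparib and the HIST1H2BJ and HIST1H2AG pair in shFoxO1 cells. The printed windows of HIST1H2AC and HIST1H2BJ cover the DNA between these starts. HIST2H2AC and HIST2H2BE, 236 bases apart, had log2 ratios of -0.17 (not called) and -0.77 (called lower). In the tables the loci of HIST1H2AC, HIST1H2BC, HIST1H2BJ and HIST1H2AG span 14972, 9054, 6854 and 2250 bases, against 390 bases for HIST2H2AC. Transcript models longer than a histone coding region can thus enter the FPKM values of both partners in these pairs. Of the genes listed below as known for polyadenylated transcripts, HIST1H1C and HIST1H2BK had loci of 642 and 381 bases, and the others 2194 bases or more. RefSeq places HIST1H2BK at 27138293 to 27146858, a longer stretch than its listed locus. Some genes outside that list also had long loci, such as HIST1H4H with 8030 bases. Whether locus length goes with a polyadenylated transcript was not tested.

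**Figure D4:**
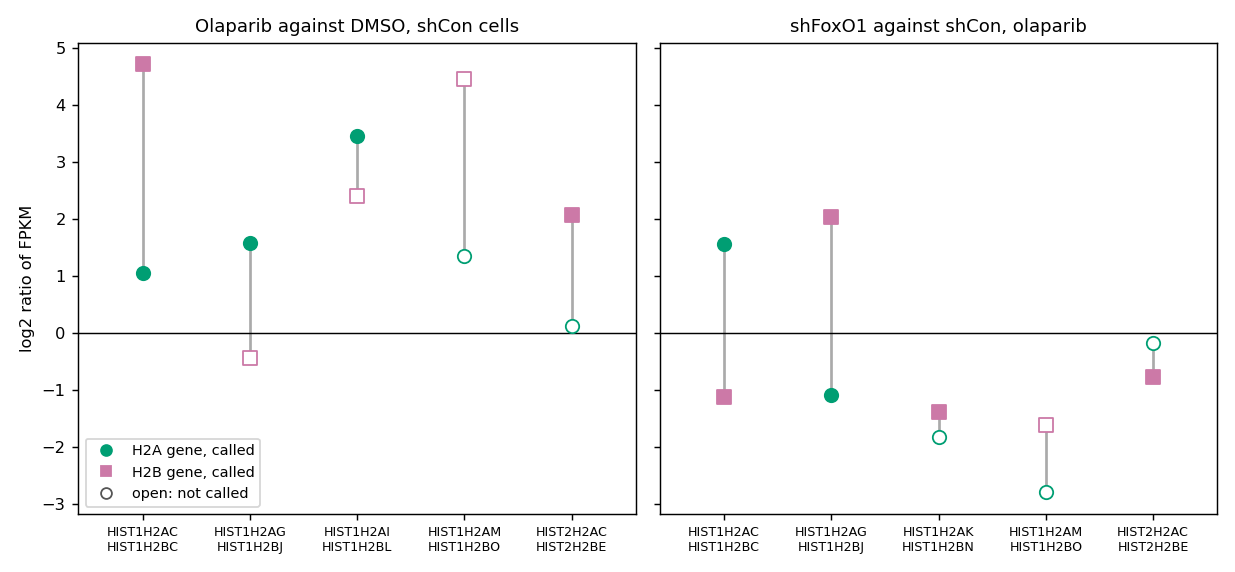
Log2 ratio of FPKM for the H2A gene (circles) and the H2B gene (squares) of each counted head-to-head pair with both genes tested and both ratios defined, filled where called. Pairs were counted among genes with a RefSeq window. On the right, HIST1H2AC and HIST1H2BJ lie above 0 at 1.56 and 2.04 while their partners HIST1H2BC and HIST1H2AG lie below it at -1.12 and -1.08.

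Factors that transcribe and process histone mRNA moved both ways. Of 28 tested, 8 were called higher and 10 lower with olaparib (median log2 ratio -0.11), and 11 higher and 6 lower in shFoxO1 cells (median 0.36, 0.09 after quantile normalization). With olaparib these were 28.6% higher and 35.7% lower, against 15.6% and 23.1% over all tested genes. In shFoxO1 cells they were 39.3% higher, against 22.6%, and 21.4% lower, near the 19.8% over all tested genes. SLBP, the stem-loop binding protein, had 55.9 FPKM in DMSO, 72.4 FPKM in olaparib and 49.5 FPKM in shFoxO1 cells, higher with the drug (q = 0.0368) and lower in shFoxO1 cells (q = 0.00106), per the authors' deposited table. NPAT had 1.44, 1.30 and 3.38 FPKM and was called higher in shFoxO1 cells (q = 0.0209, the authors' deposited table). With olaparib the called members of smallest p were CASP8AP2 (2.29 to 7.29 FPKM), a partner of NPAT in histone locus bodies, the cleavage factor gene CSTF2T (13.4 to 28.0 FPKM), and the Sm protein genes SNRPG (184 to 89.5 FPKM) and SNRPB (370 to 199 FPKM). In shFoxO1 against shCon cells they were CDK2 (72.2 to 29.4 FPKM), CSTF2T (28.5 to 13.3 FPKM), CSTF2 (10.7 to 22.0 FPKM) and LSM10 of the U7 snRNP (34.9 to 64.2 FPKM).

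Of 32 tested S phase genes, 11 were called higher, 1 lower and 20 not called with olaparib (median log2 ratio 0.28). Some of them, SLBP included, are also on the list of histone mRNA factors and are counted in both. These were 34.4% higher and 3.12% lower, against 15.6% and 23.1% over all tested genes. In shFoxO1 cells 1 was called higher, 19 lower and 12 not called (median -0.75), 3.12% and 59.4% against 22.6% and 19.8% over all tested genes. CDT1, which licenses replication origins, had 54.5 FPKM in DMSO and 118 FPKM in olaparib, then 33.0 FPKM in shFoxO1 cells. With olaparib ATAD2 went from 10.7 to 35.7 FPKM and E2F8 from 1.04 to 2.99 FPKM. In shFoxO1 cells E2F1 was at 9.28 FPKM against 33.9 FPKM, TK1 at 40.9 FPKM against 143 FPKM and TYMS at 35.8 FPKM against 107 FPKM. The part of S phase in the histone values was not tested. Histone variant genes outside the clusters had 2 of 11 called higher and 5 lower with olaparib, and 1 higher and 4 lower in shFoxO1 cells. With olaparib the variants were 18.2% higher, near the 15.6% over all tested genes, and 45.5% lower, against 23.1%. In shFoxO1 cells they were 9.09% higher and 36.4% lower, against 22.6% and 19.8%.

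**Figure D5:**
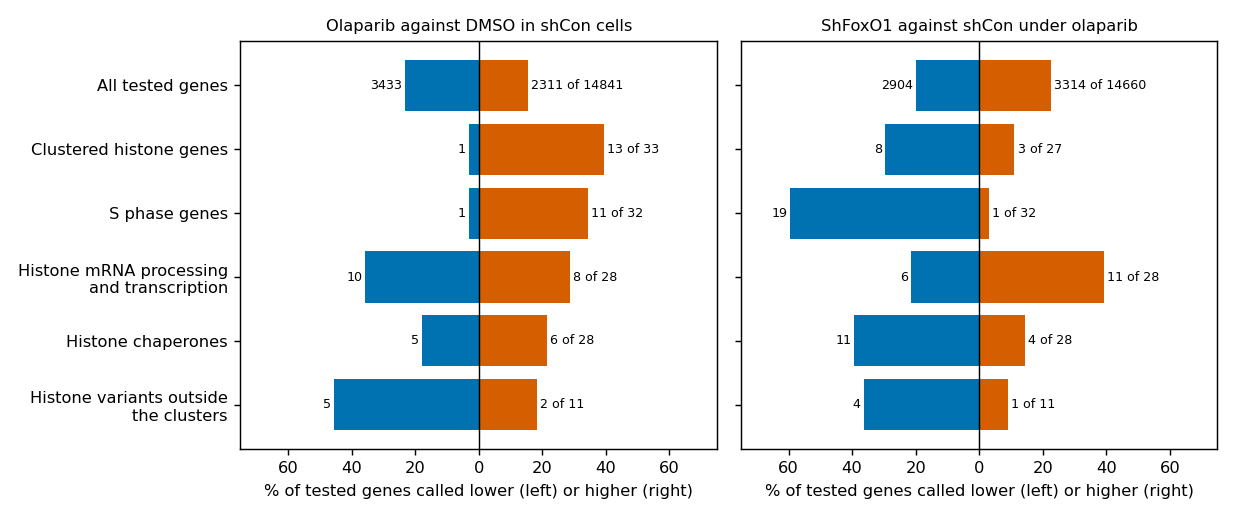
Share of tested genes called lower (left of 0) and higher (right of 0) by the authors' q-values for all genes, the clustered histone genes and 4 other lists, with counts beside the bars. With olaparib 39.4% of clustered histone genes and 34.4% of S phase genes are called higher against 15.6% of all genes, and in shFoxO1 cells 29.6% and 59.4% are called lower against 19.8%.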

How the data were processed

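RNA of SUM159 cells was sequenced as paired-end directional libraries, per the labels' protocols, which name 2 sequencing providers without assigning libraries. The submitters' processing notes list the build hg38, Cufflinks 2.2.1, HISAT2 2.1.0 and CASAVA 1.4 and give no settings. Per the file headers, the authors deposited for each gene 1 FPKM per group, a test statistic read here as a score, a p-value, a q-value and a status. Of the 8 libraries listed, which entered each value is not stated, and p-values measure only the spread the authors' software saw between them. The authors' deposited q-values matched Benjamini-Hochberg adjustment over genes with status OK within 5.22e-07, and their smallest p was 5e-05.

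Log2 ratios were computed from FPKM within a table with no pseudocount and not where a group was at 0. Members and lists were chosen with earlier results of these data known. With 1 value per group neither limma nor a permutation test could be fitted, so calls are the authors'. Named are all called members, in each class the 2 uncalled members of highest mean FPKM, and from other lists up to 4 called genes of smallest p per comparison, with ties by the larger statistic. Named outside this rule, with values seen, were SLBP, NPAT, H3F3A, H3F3B, the marker genes and the remaining uncalled or untested clustered genes, and 1 S phase gene it names is not reported here. All 33 members matched RefSeq by older symbol and position, and the gene coordinates given are those of RefSeq. They can differ from the listed loci behind the FPKM values, which span 381 bases for HIST1H2BK and 14972 bases for HIST1H2AC. Motifs were searched on both strands of 250 bases. No column of other samples was left out (0 columns). The steps, tested on simulated data, used Python 3.11.15, pandas 2.3.3, NumPy 2.4.6 and matplotlib 3.10.9.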

Additional observations from a re-analysis of the deposited data

How the results depend on the processing

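No paired analysis was possible because the tables give 1 value per group and their columns carry no replicate numbers, and leaving out a library could not be run for the same reason. With olaparib, 13 members were called higher at q of at most 0.05, 11 at 0.01, 11 with adjustment over every listed gene, 13 at a mean of at least 1 FPKM and 12 at a fold of at least 2. The 1 lower call became 0 at q of at most 0.01 and 0 with adjustment over every listed gene. In shFoxO1 cells 3 higher calls remained in number under each of these settings, and the 8 lower calls became 6, 6, 8 and 7. Adjustment over every listed gene left 20 of 25 calls, without HIST1H1E, HIST1H2AI and HIST1H2BC with olaparib and HIST1H2BC and HIST1H2BN in shFoxO1 cells. Because it counts untested genes, it raises all q-values by the same factor within a comparison. It is thus a stricter q threshold, with the same counts as 0.01, and not a separate check. All 25 kept their direction with a pseudocount of 1 FPKM and with quantile normalization. The median log2 ratio with olaparib, 1.36, became 0.91 with that pseudocount, 1.17 with quantile normalization and 1.42 at a mean of at least 1 FPKM. In shFoxO1 cells it went from -0.98 to -0.60 with the pseudocount and -0.75 with quantile normalization. The log2 ratio of summed FPKM with olaparib, 1.23, became 1.26 over tested members, 1.22 without HIST1H2BK and 1.44 with quantile normalization. In shFoxO1 cells it went from -0.05 to -0.034 over tested members, -0.23 without HIST1H2BK and -0.20 with quantile normalization. Chosen after seeing the data were the sums without the genes known to make polyadenylated transcripts (0.94 with olaparib, -0.56 in shFoxO1 cells) and over those genes alone (1.49, and 0.23, the opposite sign of the whole sum). Moved sums reflect the genes included. The cause of the other moves was not tested. Without per-library values, neither the error of a ratio nor its depth is known.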

Other observations

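Histone variants are also made from single genes outside the clusters, most of which are known for polyadenylated mRNA. H2AFZ, which encodes the variant H2A.Z, had 529 FPKM in DMSO, 756 FPKM in olaparib and 391 FPKM in shFoxO1 cells, and H2AFX, the source of the H2AX phosphorylated at DNA breaks, had 254, 390 and 141 FPKM. Both were called higher with olaparib and lower in shFoxO1 than in shCon cells under it. The linker genes H1F0 (248 to 78.6 FPKM) and H1FX (357 to 211 FPKM) and the H2A.Z gene H2AFV (156 to 95.1 FPKM) were called lower with olaparib. In shFoxO1 cells CENPA, the centromeric H3, was at 5.69 FPKM against 35.2 FPKM, and H3F3B, a gene for H3.3, was the 1 variant called higher, at 796 FPKM against 334 FPKM. H3F3A, the other H3.3 gene, was not called in either comparison (q = 0.791 and q = 0.123, the authors' deposited table). In DMSO the H3 genes among these, H3F3A, H3F3B and CENPA, had 218, 521 and 27.3 FPKM, and all clustered H3 genes together summed to 8.06 FPKM. Which RNA fraction entered each library is not stated, and its part in this difference was not tested.

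Of 28 tested histone chaperone and import genes, 6 were called higher and 5 lower with olaparib, and 4 higher and 11 lower in shFoxO1 cells (median log2 ratios 0.11 and -0.25). The shares were 21.4% higher and 17.9% lower with olaparib, near the 15.6% and 23.1% over all tested genes, and 14.3% and 39.3% in shFoxO1 cells, against 22.6% and 19.8%. The replication-coupled chaperone gene ASF1B had 29.6, 56.4 and 22.6 FPKM in DMSO, olaparib and shFoxO1 with olaparib. SSRP1 of the FACT complex went from 153 to 68.5 FPKM with the drug, IPO4 from 58.6 to 24.6 FPKM and SUPT6H from 38.5 to 24.8 FPKM. In shFoxO1 cells HJURP, which loads CENPA, was at 8.22 FPKM against 23.9 FPKM and RBBP4 at 78.4 FPKM against 146 FPKM, both called lower. HAT1, which acetylates new H4, was called higher at 38.0 FPKM against 18.1 FPKM.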
